A study of Mus musculus with 3 samples.

Results

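The histone cluster genes are the 67 protein-coding genes of GENCODE release M1 whose symbols begin with Hist1h, Hist2h, Hist3h or Hist4h, out of 22367 protein-coding genes on the chromosomes of the mouse NCBI37/mm9 genome. The rule reads only the symbol and uses no binding value. Binding was measured by ChIP-seq in liver from wild type C57BL/6 males aged 3 months, with 1 library from chromatin precipitated with an anti-RXRα antibody, 1 with an anti-RARα antibody and 1 from input chromatin that was not precipitated. All 3 libraries came from unmodified mice with no treatment named in their labels, and each library stands alone, so how far these values vary from mouse to mouse is unknown and no test was possible. Whole liver was used, so the signal averages over hepatocytes and the other cells of the organ, and a weak signal in all cells cannot be told apart from a strong one in few. RARα is the retinoic acid receptor alpha, and RXRα, the retinoid X receptor alpha, is its usual partner on DNA.

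Most genes of these clusters encode the replication-dependent core and linker histones, the proteins that package newly made DNA. Their mRNAs end in a stem-loop instead of a poly(A) tail and are made mainly in S phase, when many copies are transcribed together in a nuclear structure called the histone locus body. H2A and H2B genes often lie head to head and share the short promoter between them. Hepatocytes of an adult liver rarely divide, and a few members, such as Hist1h1c, Hist1h2bc, Hist2h2be and Hist4h4, are known for mRNAs that are also made outside S phase.

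The RXRα track corresponded to 9999939 reads and the input track to 9999292, counted from the deposited signal at 5 bins of 32 bp per read. For RARα the deposited list held 143280 peaks with a score of 5 to 382, of which 32946 had a score greater than 20 and were used. The peak list holds no read counts, so no depth at single genes can be given for RARα. At genes that mark hepatocytes, a RARα peak lay at 4 of 5 starts and an RXRα bin at or above the cut off at 4 of 5. At 5 genes of other tissues the counts were 1 and 0.

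By symbol, 55 members belong to Hist1 on chromosome 13, 9 to Hist2 on chromosome 3, 2 to Hist3 on chromosome 11 and 1 to Hist4 on chromosome 6. By type, 6 encode the linker histone H1, 19 encode H2A, 18 H2B, 11 H3 and 13 H4, the 4 core histones. Of the 67 genes, 62 have a single coding exon, and 9 annotations begin at the first codon, so that the mapped start of those genes lies inside the true transcript by an unknown length. Hist1 starts fell into 5 groups separated by more than 100 kb. Group A (chr13:21808012-21925612) holds 18 genes, group B (chr13:22127512-22135083) holds 5, and group C (chr13:23622919-23855537) holds 29. Group D (chr13:24026025-24026331) is the divergent pair Hist1h2ba and Hist1h2aa, which are testis histones, and group E is Hist1h2al alone. Starts lie so close that windows of 2 kb overlap, so neighbouring genes often share reads and peaks and are not independent observations.

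RARα peaks were frequent at the histone genes. A RARα peak with a score greater than 20 and its summit within 2 kb of the start was found at 50 of 67 members (74.6%, Wilson 95% interval 63.1 to 83.5), against 42.8% of all protein-coding genes. The start itself was close to a summit in many of them. At 38 members (56.7%) a summit lay within 200 bp of the start, against 33.2% of all genes. At 25 members the summit of the highest peak lay within 50 bp, a count not made over all genes. When each peak was given only to the nearest gene start, 38 members (56.7%) kept a peak, against 39.3% of all genes. The median of the highest score per bound gene was 59 at the members and 47 over all genes. Just inside the score threshold were Hist1h2bf, Hist1h2ad and Hist1h3d, which share a peak with a score of 21, and just outside it were Hist1h2an and Hist1h2bp, which share a peak with a score of 19.

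The highest scores belonged to H4 genes. Hist1h4d (ENSMUSG00000061482.6) had a score of 244 with the summit 22 bp upstream of its start, in a peak at chr13:23673151-23673671. This peak also lies at the start of Gm17658, an annotated gene on the other strand. Hist1h4c (ENSMUSG00000060678.4) had a score of 238 with the summit 2 bp upstream, in a peak at chr13:23790151-23790620. The linker histone gene Hist1h1e followed with 192, Hist4h4 with 173, Hist2h2ab, Hist2h2ac and Hist2h2be with a shared peak of 162, and Hist2h4 with 159. Of the 15 members with a score over 100, 6 were H4 genes. Hist1h2be also counts among the 15 because its annotated start lies 35168 bp before its first codon, beside Hist1h1e, so its score of 192 is that of the Hist1h1e peak.

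RXRα reads within 2 kb of the starts were more numerous than input reads at most members. The ratio of RXRα to input, with both libraries scaled to the same total and 1 read added to each count, had a median of 2.01 at the members and 1.42 over all genes. The exact 95% interval of the ratio lay above 1 at 47 members and included 1 at the other 20, and it lay below 1 at none of the 67. The same count was not made over all genes, whose median ratio was also above 1, and the interval narrows as reads increase. Both tracks were higher here than at most genes, with a median of 80.0 RXRα reads and 40.0 input reads per window against 25.8 and 18.4 over all genes. The highest ratios were 4.90 at Hist1h4m (124.4 RXRα and 24.6 input reads), 4.57 at Hist1h4j (63.0 and 13) and 4.25 at Hist1h2ao (109.6 and 25). The lowest were 0.455 at Hist1h2aa (6.0 and 14.4), 0.493 at Hist1h2ba (6.6 and 14.4) and 0.548 at Hist3h2ba (15 and 28.2). The plot of the members in genomic order shows both measures side by side. In it the tall RARα scores stand in group C and in Hist2, while the RXRα ratio is as high in group A, where RARα scores are low or missing.

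**Figure D1:**
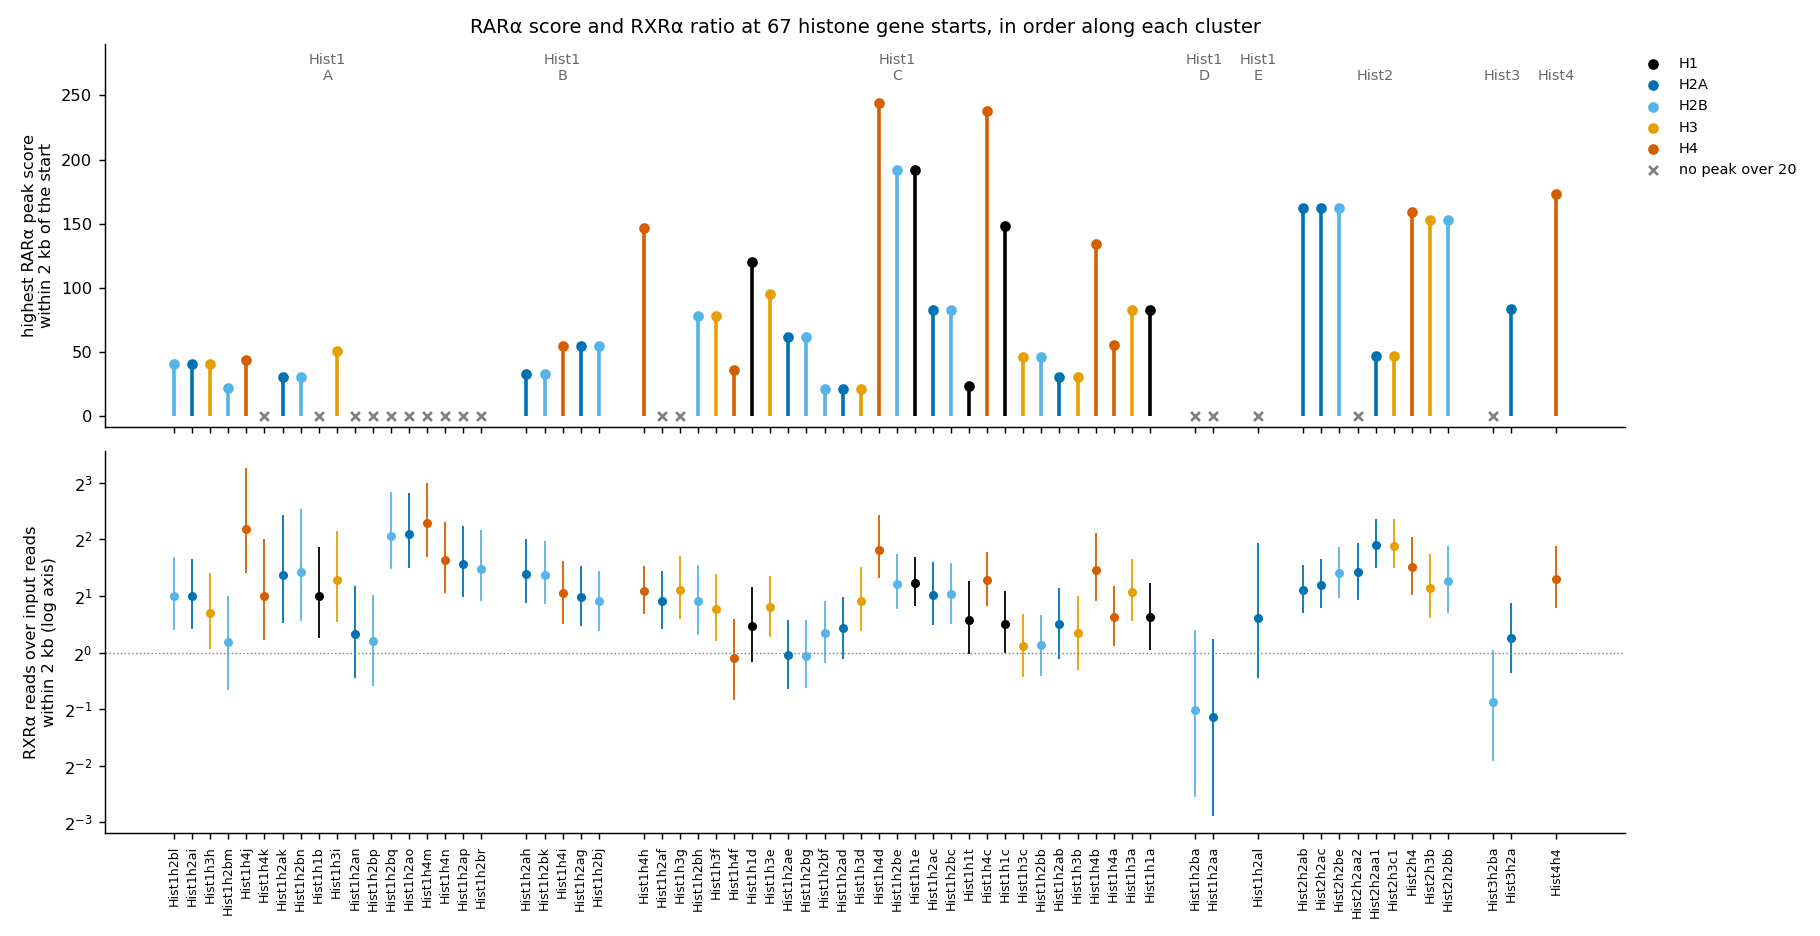
Each of the 67 histone genes is a position on the x axis, in order along its cluster, with the highest RARα peak score within 2 kb above and the ratio of RXRα to input reads below on a log axis with its exact 95% interval. Colours give the histone type and grey crosses the 17 genes without a RARα peak over 20, and the scores of Hist1h4d (244) and Hist1h4c (238) are the tallest.

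At the threshold of 20 times input, the share of members was closer to that of all genes. A bin at or above 20 times the input was present within 2 kb of 23 of 67 members (34.3%, Wilson interval 24.1 to 46.3), against 25.5% of all genes. With the bins restricted to 500 bp from the start, 13 members had such a bin, against 18.1% of all genes. Such bins were merged into RXRα regions where the gap was at most 200 bp. A RARα peak and an RXRα region sharing at least 25% of the shorter of them were present at 12 of 67 members (17.9%, 10.6 to 28.7), against 17.3% of all genes, so this share was near the background. Among the RARα-bound genes the share with both receptors at the same location was 24% at the members and 40.5% over all genes. There were 54 distinct RARα peaks within 2 kb of a member. Their median score was 50, against 39 for all 12634 RARα peaks near a gene start. The median RXRα enrichment, the mean RXRα over the mean input signal in the peak (the latter at least the genome mean), was 2.32, against 4.70, and 8 of 54 (14.8%, 7.70 to 26.6) overlapped an RXRα region, against 33.0%. The count at the threshold moved with the way input was used. Where the genome mean of input was used in place of the larger of mean and local input, 45 members had a bin at 20 times or more, against 38.4% of all genes.

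Hist1 group C held most of the bound genes. A RARα peak was present at 27 of 29 members of group C (93.1%, Wilson interval 78.0 to 98.1), at 5 of 5 in group B, at 8 of 18 in group A (44.4%, 24.6 to 66.3) and at 8 of 9 in Hist2. Over all genes the share was 42.8%. The testis pair of group D and Hist1h2al of group E had no RARα peak in the list at any score, and no RXRα bin at the cut off. The difference between groups C and A was 48.7 percentage points (Newcombe interval 22.1 to 69.2, counting error only). Group A includes 6 genes of repeated sequence without a RARα peak, described below. Without them its count was 8 of 12 and the difference was 26.4 points. Each set of members that share a peak was also counted once, with the 6 genes included. The shares were then 16 of 18 in group C and 5 of 15 in group A. Per length of DNA the RARα peaks were also dense there, and so were the gene starts. The stretch of group C with 2 kb on each side held 38 RARα peaks in 236.6 kb, or 16.1 per 100 kb. It had 31 protein-coding starts, and 32 of its peaks lay within 2 kb of a member. Hist2 held 9 peaks in 53.8 kb, or 16.7 per 100 kb, with 9 starts. Group A held 6 in 121.6 kb, or 4.93 per 100 kb, with 18 starts. The 1483.8 kb between groups B and C, with 38 protein-coding gene starts, held 7 peaks, or 0.472 per 100 kb. The whole genome had 1.24 per 100 kb, with 32946 peaks and 22367 starts, so peaks outnumbered starts there as in group C. The density per length was not corrected for the density of starts.

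RXRα followed another order among the clusters. The median ratio was 2.65 in Hist2, 2.51 in group A, 2.08 in group B, 1.71 in group C, 1.53 at Hist1h2al and 0.474 in group D. Without its 6 genes of repeated sequence, group A had a median of 2.0, below that of group B. Bins at the cut off were present at 6 of 9 members in Hist2, 7 of 18 in group A, 9 of 29 in group C and 0 of 5 in group B. RARα and RXRα lay at the same location at 5 of 9 members of Hist2 and 7 of 29 of group C, and at 0 of 18 in group A. Over all genes the shares were 25.5% with such a bin and 17.3% with both at the same location. Hist3h2a, whose start is identical to that of Trim17, had a RARα score of 84 and a ratio of 1.19, while its neighbour Hist3h2ba had neither call. Hist4h4, alone on chromosome 6, had a score of 173 and a ratio of 2.45. The bar plot of shares shows that among the 4 clusters with 5 or more genes the lowest RARα share was in group A and the lowest RXRα share in group B.

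**Figure D2:**
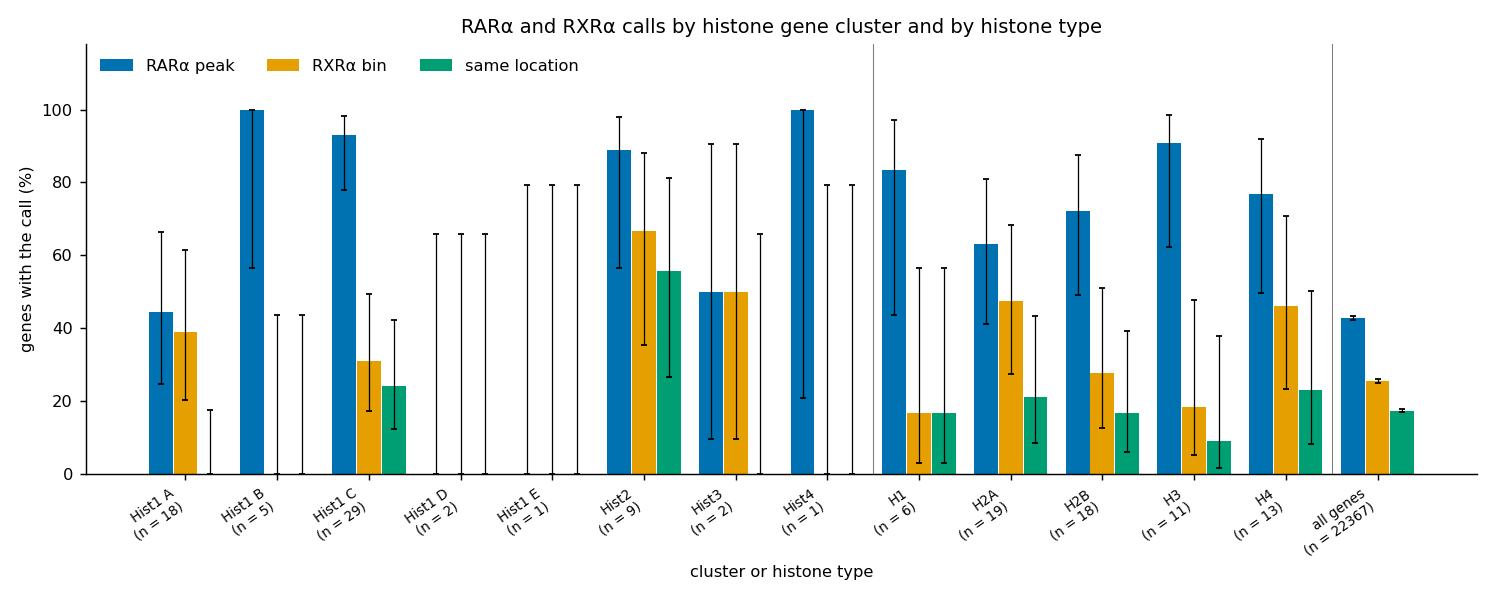
Bars give the percentage of genes with a RARα peak over 20, with an RXRα bin at 20 times input or more, and with both at the same location, for each histone cluster, each histone type and all 22367 protein-coding genes. Lines are Wilson 95% intervals of the counts. RARα bars reach 93.1% in group C and 44.4% in group A, against 42.8% over all genes. Group A includes 6 genes of repeated sequence, without which its RARα share was 66.7%.

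Group A contains an inverted copy, and its genes carried RXRα reads but no RARα peak. The genes Hist1h2bq, Hist1h2ao and Hist1h4m lie in chr13:21893161-21904125, and Hist1h2br, Hist1h2ap and Hist1h4n lie in the mirror image of it at chr13:21923555-21934519. The copies are 10965 bp long and 99.9% identical. The promoter between the divergent starts of each copy is shown here because its 167 bases have 0 mismatches between the copies, so that a read from it fits both places. CCAAT boxes on either strand are in capitals, both sequences are on the plus strand of NCBI37/mm9, and the second reads as the reverse complement of the first.
Hist1h2bq to Hist1h2ao, chr13:21902069-21902235: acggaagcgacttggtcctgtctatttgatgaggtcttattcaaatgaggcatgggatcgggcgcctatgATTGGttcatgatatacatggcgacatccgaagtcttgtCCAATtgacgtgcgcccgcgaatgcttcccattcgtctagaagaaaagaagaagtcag
Hist1h2ap to Hist1h2br, chr13:21925445-21925611: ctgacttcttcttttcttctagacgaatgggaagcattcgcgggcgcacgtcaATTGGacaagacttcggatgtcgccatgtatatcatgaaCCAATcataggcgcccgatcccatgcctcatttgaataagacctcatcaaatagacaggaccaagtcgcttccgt

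At these 6 genes between 0.675% and 17.0% of the 36-base words in the window occur once in the genome. None of the 6 had a RARα peak in the list at any score. RXRα reads numbered 105.4 at Hist1h2bq, 109.6 at Hist1h2ao and 124.4 at Hist1h4m, with 24.4, 25 and 24.6 input reads. In the mirror copy RXRα reads numbered 94.8 at Hist1h4n, 90.2 at Hist1h2ap and 85.8 at Hist1h2br, with 29.8, 30.0 and 30.2 input reads. The ratios of 2.78 to 4.90 were all above the median of the members, and all 6 genes had an RXRα bin at the cut off. Over all genes with under 20% unique words, 4 of 869 had a RARα peak (0.460%) and 69 an RXRα bin (7.94%), while of the 17798 genes with at least 90% the shares were 49.2% and 28.5%. The study describes uniquely mapped reads, and how reads from identical copies were placed in the tracks is not given in the sources used here. Without these 6 genes a RARα peak was present at 50 of 61 members (82.0%) and an RXRα bin at 17 of 61 (27.9%). Group A then had 8 of 12 with a RARα peak and 1 of 12 with an RXRα bin, the latter being Hist1h4k. Hist2h2aa2 and Hist2h2aa1, near-identical H2A genes of Hist2 with 49.5% and 51.6% unique words, had RARα scores of 17 and 47 and ratios of 2.68 and 3.72. The plot of uniqueness against the ratio shows the 6 genes at its left edge, apart from the other members.

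**Figure D3:**
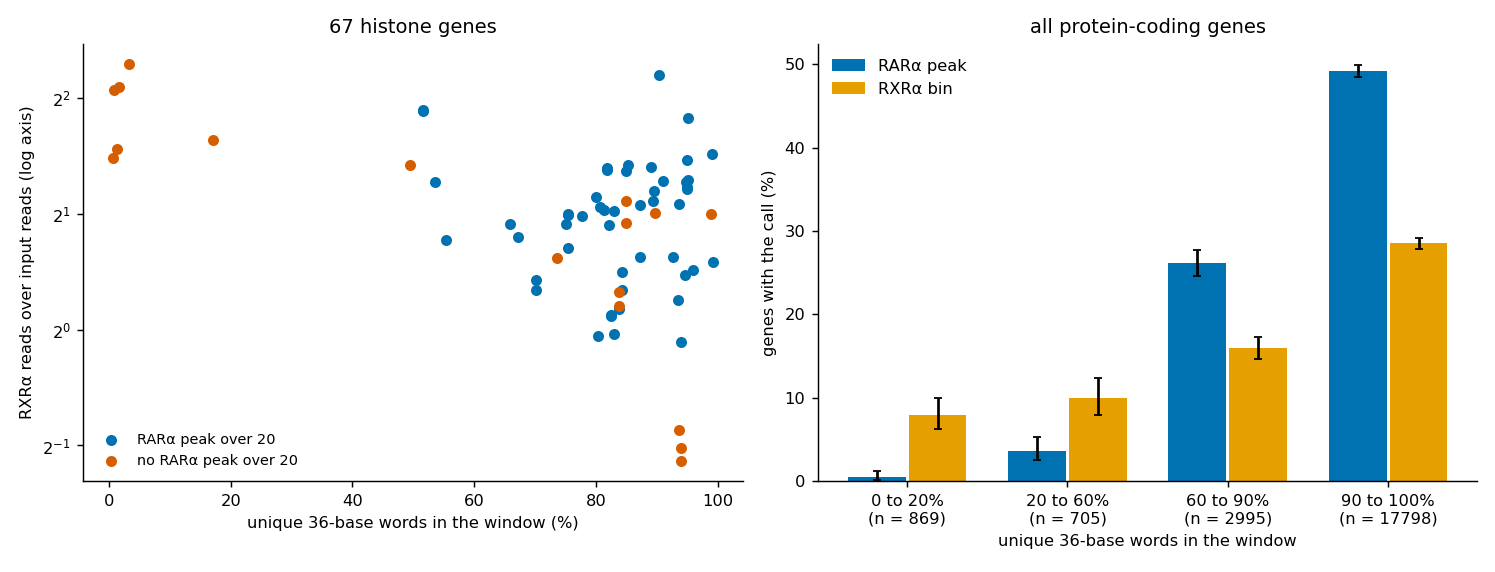
On the left each point is a histone gene, with the percentage of 36-base words in its window that occur once in the genome on the x axis and the ratio of RXRα to input on a log y axis; the 6 genes under 20% have no RARα peak and ratios of 2.78 to 4.90. On the right bars give the percentage of all protein-coding genes with each call by class of uniqueness, with Wilson 95% intervals, from 0.460% to 49.2% for RARα and from 7.94% to 28.5% for RXRα.

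RARα peaks were found at genes of each histone type. A RARα peak was present at 10 of 11 H3 genes, 5 of 6 H1 genes, 10 of 13 H4 genes, 13 of 18 H2B genes and 12 of 19 H2A genes. Over all genes the share was 42.8%. The difference between the highest and the lowest share, H3 and H2A, was 27.8 percentage points, and its Newcombe interval of -5.92 to 51.1 included 0. Both receptors at the same location were found at 4 of 19 H2A, 3 of 18 H2B, 3 of 13 H4, 1 of 6 H1 and 1 of 11 H3 genes. These shares, from 9.09% at H3 to 23.1% at H4, lay near the 17.3% of all genes. Scores overlapped between the types. Where a summit lay within 200 bp of the start, the median score was 147 for 9 H4 genes and 134 for 4 H1 genes, against 53.5 for 6 H3, 48.0 for 9 H2A and 39.5 for 10 H2B genes. The scores ranged from 36 to 244 at these H4 genes, from 83 to 192 at H1, from 21 to 109 at H3, from 31 to 162 at H2A and from 22 to 153 at H2B. With each of the 54 peaks given to its nearest start and those farther than 200 bp included, the median was 47.5 for 18 peaks at H4 and 56 for 7 at H3.

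At H4 starts RXRα formed a narrow summit. Averaged over the 11 H4 genes with at least 20% unique sequence, the RXRα signal reached 25 per bin 64 bp upstream of the start and was 1.0 in the flanks beyond 1500 bp. The highest mean signal of the other types was 8.25 for H2A, 7.82 for H3, 7.78 for H2B and 6.75 for H1, and it was 6.95 over 17798 genes with at least 90% unique sequence. Input rose at the H4 starts too, to 4.82 per bin from 1.09 in the flanks. Of the H4 genes, 81.8% had a RARα peak over the bins just upstream of the start. The H3 maximum lay 1472 bp upstream of the start rather than at it. The plot of mean signal against distance shows the H4 line alone above the rest at the start. A second rise of RARα peaks downstream of H1 starts belongs to further peaks such as those 1074 bp into Hist1h1d (score 54) and 1139 bp past the start of Hist1h1c (score 50).

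**Figure D4:**
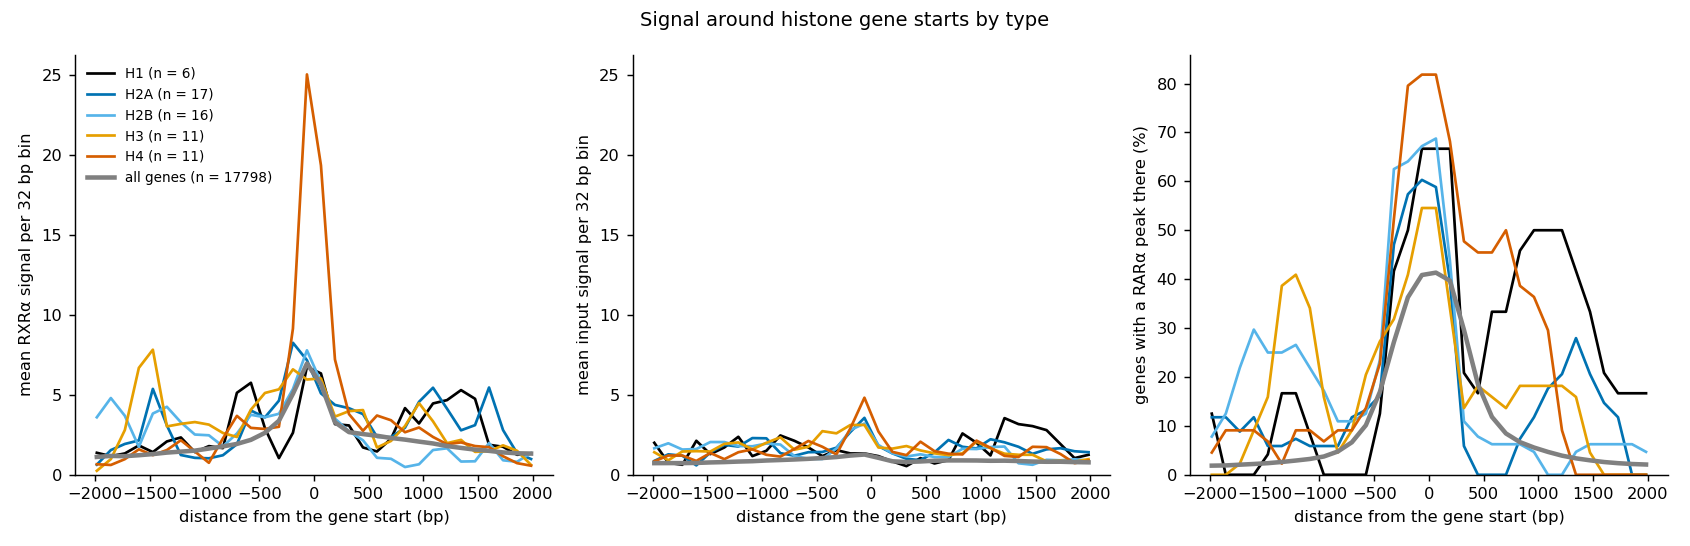
Lines give the mean RXRα signal (left, scaled to the input total), the mean input signal (middle, same scale) and the percentage of genes with a RARα peak over 20 (right) by distance from the gene start, for histone genes of each type with at least 20% unique sequence and for all genes with at least 90%. The RXRα line of 11 H4 genes peaks at 25 per bin, while those of the other types stay at or below 8.25.

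Gene by gene, the reads within 250 bp of the start, a window set after this profile had been seen, were also highest at H4 genes. Hist1h4d had 88.2 RXRα reads and 11 input reads, Hist1h4c 79.6 and 15.8, and Hist1h4h 66.2 and 17. Hist1h4b had 58.6 and 7.2, Hist4h4 57.2 and 11.2, Hist2h4 55 and 10.4, and Hist1h4i 51.4 and 9.4. These 7 H4 genes came from Hist1, Hist2 and Hist4. In the inverted copy Hist1h4m had 44.4 RXRα reads and Hist1h4n 38. The other 4 were lower, with 28 at Hist1h4a, 21.4 at Hist1h4k, 13.6 at Hist1h4j and 13 at Hist1h4f. Of the 10 members with the most RXRα reads in this window, 8 were H4 genes, and the other two were the H2A genes Hist2h2aa2 (59.2) and Hist2h2ac (42.8). The median was 51.4 RXRα reads at H4 genes and 13.4 at the 54 members of the other types, against 5 over all genes, and the ratio to input had medians of 5.04, 2.53 and 2.0. Over genes with at least 90% unique sequence the medians were 7.8 reads and a ratio of 2.33, and the upper quartile of the ratio was 4.80. At the 11 H4 genes with at least 20% unique sequence the median ratio was 4.91, close to that quartile. The dot plot of reads by type shows that the H4 genes still spread widely and that the lowest H4 genes lie among those of the other types.

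**Figure D5:**
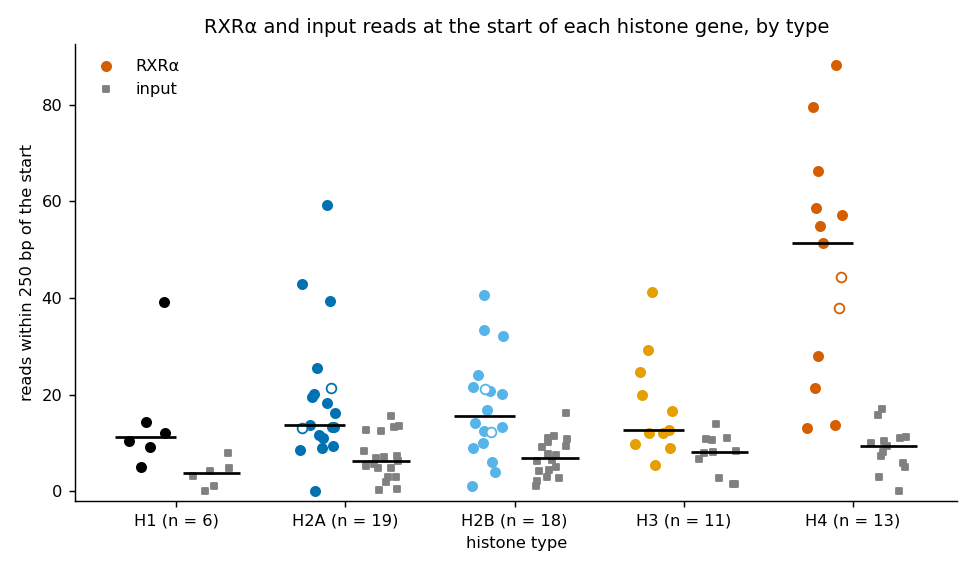
Each point is a histone gene, with its RXRα reads (coloured circles) and input reads (grey squares) within 250 bp of the start by histone type, and bars are medians; open circles mark the 6 genes of the inverted copy. H4 genes have a median of 51.4 RXRα reads and reach 88.2 at Hist1h4d, while medians of the other types lie between 11.2 and 15.5.

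Promoters of some of the H4 genes at these summits are printed because they differ in letters from those of the other types. Each is the 150 bp before the start, 5′ to 3′ on the strand of the gene, and capitals mark the CCAAT box, the TATA box (TATAAA), the octamer (ATTTGCAT) and the letters GGTCCG on either strand. The letters GGTCCG were chosen after the H4 promoters had been read.
Hist1h4d, chr13:23673317-23673466, plus strand: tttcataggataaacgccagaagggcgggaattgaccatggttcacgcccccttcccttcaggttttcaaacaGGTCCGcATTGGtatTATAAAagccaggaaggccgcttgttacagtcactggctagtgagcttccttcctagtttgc
Hist1h4c, chr13:23790324-23790473, minus strand: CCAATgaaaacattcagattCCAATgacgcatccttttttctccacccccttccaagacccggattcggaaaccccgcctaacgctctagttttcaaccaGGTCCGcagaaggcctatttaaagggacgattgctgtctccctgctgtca
Hist4h4, chr6:136752901-136753050, minus strand: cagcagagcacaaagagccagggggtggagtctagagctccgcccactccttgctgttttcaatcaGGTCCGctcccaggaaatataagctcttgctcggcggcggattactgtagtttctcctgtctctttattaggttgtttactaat
Hist1h4b, chr13:23848656-23848805, plus strand: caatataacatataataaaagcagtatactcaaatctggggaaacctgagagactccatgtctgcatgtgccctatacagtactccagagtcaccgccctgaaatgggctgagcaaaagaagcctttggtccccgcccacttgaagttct

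In the 250 bp before the start, GGTCCG was found on either strand at 11 of 13 H4 genes (84.6%), and at 0 of 6 H1, 0 of 19 H2A, 1 of 18 H2B and 1 of 11 H3 genes, against 7.79% of all protein-coding genes. Hist1h4a and Hist1h4b lack it, and Hist1h4b holds none of the letters searched, yet its highest RXRα bin, 43 bp downstream of the start, was 49.0 times input. That was the highest bin of any member. The CCAAT box ran the other way. It was present at 6 of 6 H1, 19 of 19 H2A, 18 of 18 H2B and 10 of 11 H3 genes, but at 4 of 13 H4 genes, against 35% of all genes. TATAAA was found at 33 of 67 members (49.3%), against 12.3%. The octamer ATTTGCAT, the binding sequence of Pou2f1 in H2B promoters, was found at 8 H2B and 7 H2A genes and at no H1, H3 or H4 gene (22.4% of members, against 1.62% of all genes), and the 250 bp before an H2A start often contain the promoter of the H2B gene beside it. A match in letters is a description and not a binding site.

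Direct repeats of the retinoid receptor motif were rare at the members and over all genes alike. A direct repeat of the hexamer NGNTCA, where the first N is A or G and the second is G or T, with a spacing of 1 to 5 bases was present in 0 of 67 member promoters, against 0.376% of all promoters. Within 100 bp of the RARα summit it was found at 0 of the 54 histone peaks, against 0.380% of all peaks near a gene start. With shares this low over all genes, the counts of 0 do not set the members apart. A single hexamer was found at 10 of the 54 (18.5%), against 27.7%. Among the 8 histone peaks that overlapped an RXRα region it was found at 4 (50%), against 37.9% of all such peaks. CCAAT was found at 53.7% of the 54, against 22.5%, TATAAA at 35.2%, against 4.2%, and GGTCCG at 14.8%, against 12.1%. Member promoters held these letters with or without a RARα peak, CCAAT at 86% and 82.4% and TATAAA at 46% and 58.8% in turn. Sites with other letters were not searched, so the counts of 0 say only that these direct repeats are not in these windows.

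Some of the divergent pairs had a RARα summit at or between their starts. There are 13 head to head pairs with starts 168 to 693 bp apart, 12 of them an H2A with an H2B gene. A RARα summit over the threshold lay between the starts, or within 200 bp outside them, at 8 pairs. The highest summit was 5 to 62 bp from the nearer start. In H2A and H2B pairs, with gaps of at most 306 bp, any summit counted lies within 200 bp of a start by construction. Among the 8 pairs, the nearer gene was H2B in 5 and H2A in 3. Of the other 5 pairs, Hist1h2bq/Hist1h2ao and Hist1h2ap/Hist1h2br lie in the inverted copy. Hist1h2an/Hist1h2bp and Hist1h2bf/Hist1h2ad had a highest score of 19, and the testis pair had no peak. The pair with the highest score was Hist2h2ac and Hist2h2be, whose shared promoter is printed as the example of the arrangement, with the same capitals and on the plus strand.
Hist2h2ac to Hist2h2be, chr3:96024804-96025043: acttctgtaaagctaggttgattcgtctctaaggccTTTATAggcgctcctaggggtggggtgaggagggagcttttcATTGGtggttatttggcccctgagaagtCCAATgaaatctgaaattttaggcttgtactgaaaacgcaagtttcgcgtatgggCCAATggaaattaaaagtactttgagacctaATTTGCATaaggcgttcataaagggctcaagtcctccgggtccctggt

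In this promoter the RARα summit, with a score of 162, lay 32 bp from the Hist2h2ac start and 209 bp from that of Hist2h2be. The stretch between the 2 starts, with 200 bp added on each side, held 51.2 RXRα reads against 13.8 input reads. At Hist1h2ac and Hist1h2bc, 251 bp apart, abutting peaks with scores of 81 and 83 had their summits 13 bp upstream of Hist1h2ac and 27 bp inside Hist1h2bc. The testis pair Hist1h2ba and Hist1h2aa, 306 bp apart, had no peak. Between its starts, with 200 bp added on each side, the pair held 0.4 RXRα reads and 1.0 input reads. Their windows of 2 kb, with 94.0% unique words, held 14.4 input reads, fewer than the median of 40.0 at the members. The third testis gene, Hist1h1t, the linker histone of spermatocytes, had a ratio of 1.5 and a score of 24 from a peak 1820 bp past its start, next to Hist1h4c.

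Hist1h1c, Hist1h2bc, Hist2h2be, Hist3h2a and Hist4h4, known for mRNA also made outside S phase, had RARα scores above 59, the median of the bound members. Hist1h1c had a score of 148, a ratio of 1.42 and no RXRα bin at the cut off. Hist1h2bc had 83, a ratio of 2.05 and no such bin, while Hist2h2be had 162, a ratio of 2.65 and a bin at 28 times input, which lay at -1827 bp from its start. Hist3h2a had 84 and Hist4h4 173.

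Genes of histone supply outside the clusters were also measured. Over all protein-coding genes the shares were 42.8% with a RARα peak, 25.5% with an RXRα bin and 17.3% with both. Of 10 replication-independent histone genes, 8 had a RARα peak, 7 an RXRα bin and 6 both at the same location, with a median ratio of 2.48. H2afz, the H2A.Z variant, had a RARα score of 48 and an RXRα bin at 36.5 times input, and H2afy, a macroH2A, 42 and 58.1. H2afx, which is phosphorylated at DNA breaks, had the highest score of the list, 195. Of 13 factors of histone gene expression and mRNA processing, 12 had a RARα peak, 3 an RXRα bin and 2 both, the latter counts being near the background. Among them Slbp, which binds the stem-loop, had a score of 99, Hinfp, a factor of H4 promoters, 91, and Npat, a component of the histone locus body, 31. Of 6 histone chaperones, 5 had a RARα peak and 0 an RXRα bin, with Nasp at 67 and Asf1b at 62. Within the members themselves, RARα score and RXRα ratio were weakly related across the 50 bound genes (Spearman's rho 0.336, against 0.249 across 9566 bound genes), where genes share windows and are not independent replicates.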

How the data were processed

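Per the labels and the study's methods, liver chromatin was sonicated and precipitated, and reads were aligned with Bowtie and peaks called with MACS. For RXRα and input the authors deposited signal, whole-number coverage in bins of 32 bp with empty bins left out. For RARα the deposited list gives a score per peak, cut here at 20 as in the study, and a false discovery rate in percent, which reached 4.75 and was not used. The methods set a cut off of 20 fold over input and name IgG as the negative control of precipitation, but whether the deposited score is that fold is not given in the sources used here. The methods name mm10 for alignment, while the file headers name mm9, and all positions here are NCBI37/mm9.

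The start of a gene is its annotated 5′ end in GENCODE M1, for protein-coding genes. A bin passed where RXRα, after scaling, reached 20 times its own input or 20 times the genome mean of input (0.603 per bin), whichever was higher, and bins within 200 bp were joined into RXRα regions. Enrichment at a RARα peak is mean RXRα over mean input, the latter at least the genome mean. Reads are signal divided by 5, summed over bins within 2 kb. Uniqueness is the share of 36-base words within 2 kb that occur once in the genome on either strand. Intervals are Wilson for shares and exact binomial for ratios, cover counting error only and treat overlapping windows as separate. No p-values were computed, since each antibody has 1 library. The window and overlap steps were checked on simulated data.

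The members and gene lists were chosen with earlier results of these data known. Genes named are the highest RARα score per cluster, the 3 highest and lowest ratios, testis and S phase-independent genes, and examples of each list, and other genes were named after their values were seen. The histone gene H1f0 was not matched in the annotation. Python 3.11.15, numpy 2.4.6, pandas 2.3.3, scipy 1.17.1, numba 0.67.0 and matplotlib 3.10.9 were used.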

Additional observations from a re-analysis of the deposited data

How the results depend on the processing

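The RARα count of 50 of 67 members stayed within 1.5 times under 8 of 9 alternatives, from 38 to 58, and was 30 at a score greater than 50. Over all genes the shares were 39.3% and 52.2% at the settings that gave 38 and 58, and 19.3% at that score. The RXRα count of 23 was 51 at 10 times input, 65 at 5 times, 45 over mean input alone, 13 with bins within 500 bp and 45 with bins within 10 kb. Over all genes these shares were 45.3%, 64.5%, 38.4%, 18.1% and 39.9% in turn. The RXRα count was 17 of 61 without the 6 genes of the inverted copy, an alternative chosen after seeing the data. The count at the same location, 12, was 7 at a score greater than 50, 28 with RXRα at 10 times input and 42 at 5 times. Over all genes these shares were 8.20%, 31.6% and 39.5%, and 17.3% at the main setting. The median ratio of 2.01 was 2.69 within 500 bp, 2.15 within 1 kb, 1.68 within 10 kb and 1.75 with bins of repeated sequence left out. Over all genes these medians were 2.0, 1.68, 1.09 and 1.43, so the members stayed above all genes. The difference between groups C and A, 48.7 points, was 37.0 within 500 bp, 55.6 with shared peaks counted once and 26.4 without the inverted copy. The difference between H3 and H2A, 27.8 points, was 14.8, 31.7 in Hist1 alone and 20.3 in turn. The causes of these changes were not tested. No paired analysis was possible because each antibody has 1 library, and no replicate could be left out. Depth limits the ratio where input is low, with 11.4 reads at Hist1h2al, 13 at Hist1h4j and 14.4 at each gene of group D.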

Other observations

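The 3 histone pseudogenes left out of the members were measured in the same way. Hist2h3c2, in Hist2 beside Hist2h2aa2, had no RARα peak over 20, a ratio of RXRα to input of 2.83 and an RXRα bin at 29.9 times input. Hist3h2bb-ps, whose window overlaps that of Hist3h2a, was within reach of the same RARα peak with a score of 84 and had a ratio of 1.24. Hist1h2aj, beside Hist1h2bm in group A, was within reach of its peak with a score of 22 and had a ratio of 1.10.

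The stretch of group C also held 5 RARα peaks that lay more than 2 kb from any protein-coding start, and 1 more at Hfe, the iron regulator whose start lies among the histone genes. Hfe had a RARα score of 31, a ratio of 2.36 and an RXRα bin at 29.9 times input. Between groups C and D, 166.5 kb with 5 protein-coding starts and no histone gene held 7 RARα peaks, or 4.2 per 100 kb.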
